A study of Mus musculus with 8 samples.

Results

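The nuclear respiratory chain genes are the chromosomal genes for subunits of complexes I to V of the inner mitochondrial membrane. They were taken as the rows of the deposited table whose Ensembl identifier belongs to a protein-coding mouse gene with a symbol that begins with Ndufa, Ndufb, Ndufc, Ndufs, Ndufv, Sdh, Uqcr, Cyc1, Cox5, Cox6b1, Cox6c, Cox7b, Cox7c or Atp5. This rule gave 83 genes of the 51826 in the table. Of these, 72 encode subunits: 37 of complex I, 4 of complex II, 9 of complex III, 6 of complex IV and 16 of complex V. The rule also took in 8 assembly factors of complex I (Ndufaf genes) and 3 further genes, the paralogs Ndufa4l2 and Cox7b2 and the associated factor Atp5s, which are counted apart. Other Cox genes, such as Cox4 and Cox8, lie outside the rule and were not analysed here.

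RNA had been sequenced from heart cardiomyocytes of C57BL/6 mice. The 4 groups were LncSync-/- adults, which lack a long noncoding RNA on both alleles (KO adult), wild-type adults (WT adult), LncSync-/- embryos at e13.5 (KO e13.5) and wild-type embryos at e13.5 (WT e13.5), with 2 libraries in each. The labels give heart as the source and cardiomyocyte as the cell type, and give no exact adult age, no design of the null allele and no way of isolating the cells. Nor do they state whether replicate libraries stem from different animals, and p-values therefore measure only how far these samples spread, which may be technical. LncSync has no row of that name in the table, and the genotype labels were therefore not checked by its level.

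Complexes I, III and IV pass electrons from NADH to oxygen and pump protons, complex II feeds in electrons from succinate, and complex V, the ATP synthase, uses the proton gradient to make ATP. Complex II is encoded wholly in the nucleus, while the other complexes join nuclear subunits with core subunits encoded by mitochondrial DNA. The heart is among the tissues richest in mitochondria, and cardiomyocytes shift towards oxidative metabolism after birth. Nuclear and mitochondrial genes are linked by regulators such as NRF1, GABPA and the estrogen-related receptors with their coactivators of the PGC-1 family.

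Total counts ran from 16495084 to 20395600 per library, and a floor of 3 counts corresponded to 0.103 to 0.207 CPM (a gene's count relative to its library's size, scaled by the trimmed mean of M values, TMM). The 72 subunit genes took 3.13% to 3.89% of all counts in adult libraries and 2.16% to 3.89% in e13.5 libraries. The 10 cardiomyocyte markers were detected in every library, with summed levels of 60540 to 81890 CPM in adults and 13760 to 33780 CPM at e13.5. Single markers were low at one age or in 1 library, such as Ryr2 with 14.9 to 35.7 CPM at e13.5, Nkx2-5 with 4.69 CPM in KO e13.5 replicate 1 and Myh7 with 26.8 to 76.0 CPM in adults. Myh6, the adult myosin heavy chain, had 25160 to 42760 CPM in adults and 778 to 2870 CPM at e13.5. Haemoglobin took 15.5% of the counts of KO e13.5 replicate 1, 2.89% to 4.65% of those of the other e13.5 libraries, and at most 0.0136% of those of an adult library. In bulk RNA of this kind, fewer cells of a type and less RNA per cell cannot be told apart.

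In adults against e13.5, few members passed the test. In KO hearts 3 of the 82 members tested rose (Sdha, Ndufa4 and Ndufb10) and 1 fell (Atp5g2), and in WT hearts 1 rose (Sdha) and 1 fell (Atp5g2). The test was edgeR's quasi-likelihood test, with p-values adjusted by Benjamini-Hochberg across the 16623 genes that passed the filter on low counts and a threshold of 0.05. Among those genes 20.5% rose and 20.9% fell in KO hearts, and 17.8% rose and 21.1% fell in WT hearts, so that in this fit the share of members called was below that of all genes in either direction. The fitted values nevertheless leaned upwards. The median log2 fold change of the members was 0.74 in KO hearts, against a median of -0.15 over all genes tested. In WT hearts it was 0.32, against -0.26 over all genes. A positive value was fitted for 74 of 82 members in KO hearts and 55 of 82 in WT hearts. Both adult libraries lay above both e13.5 libraries for 37 of 82 members in KO hearts, where 34.8% of all genes did so. In WT hearts this held for 29 of 82 members, which was near the 34.0% of all genes. The opposite order held for 1 member in KO hearts (all genes 37.9%) and 4 members in WT hearts (all genes 41.8%).

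**Figure D1:**
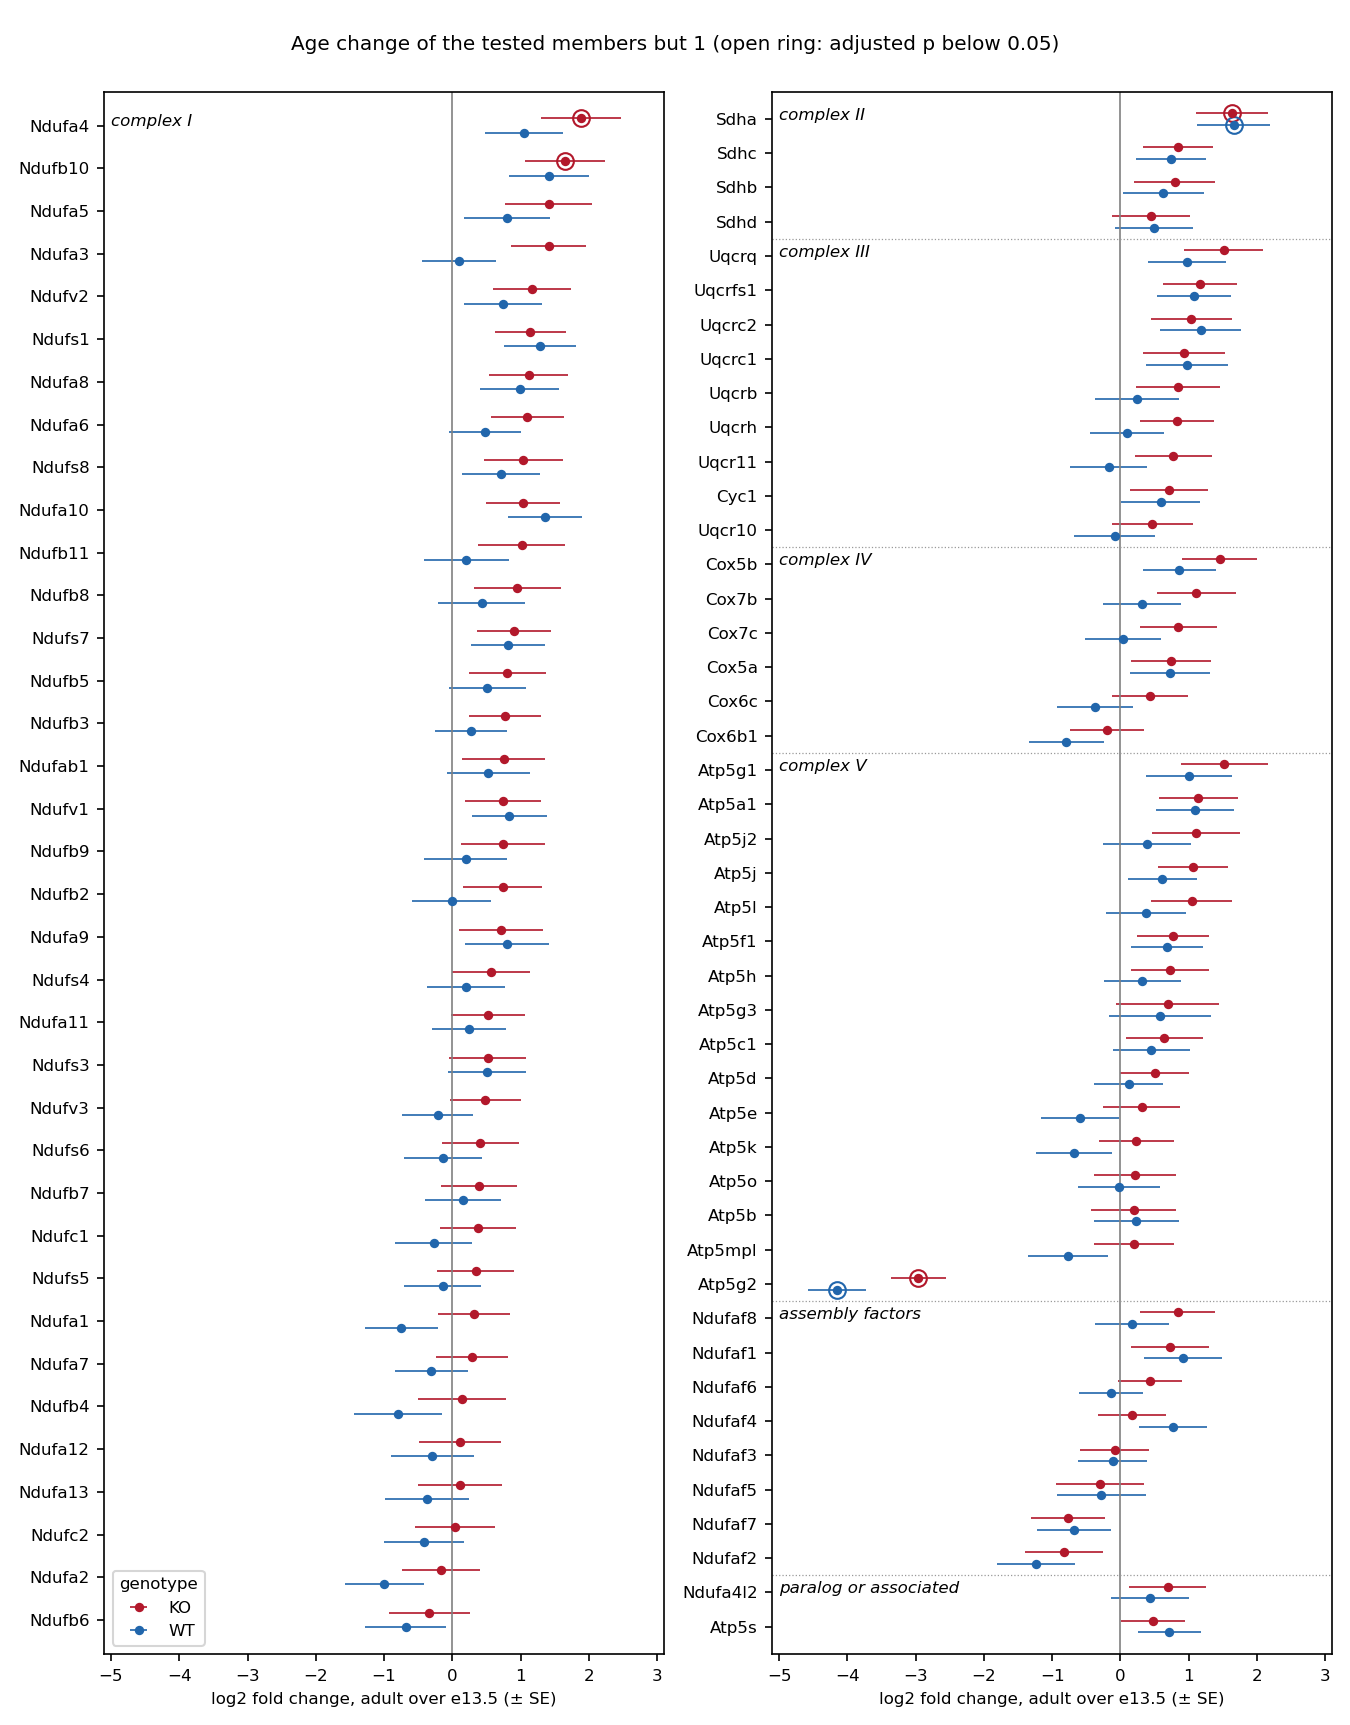
Fitted log2 fold change, adult over e13.5, of the tested members but 1 (points, with standard errors as bars) in KO hearts in red and WT hearts in blue, grouped by complex and ordered by the KO value. An open ring marks an adjusted p below 0.05: Sdha and Atp5g2 in both genotypes, and Ndufa4 and Ndufb10 in KO hearts.

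The e13.5 libraries differed from each other more than the adult libraries did, and in the same way in both genotypes. All 72 subunit genes had a higher CPM in replicate 1 than in replicate 2, in KO e13.5 and in WT e13.5 alike. The median ratio of replicate 1 to replicate 2 was 2.42 in KO e13.5 and 2.16 in WT e13.5, while the median over all genes tested was 0.939 and 0.966. In adults replicate 1 was the higher one for 65 of 72 subunits in KO hearts (median ratio 1.45) and 59 of 72 in WT hearts (median ratio 1.24). Summed over the 37 subunits of complex I, the level was 9514 and 3856 CPM in the KO e13.5 libraries and 9615 and 4413 CPM in the WT e13.5 libraries. In adults the same sum was 13810 and 10250 CPM in KO and 10940 and 9673 CPM in WT, so that the higher e13.5 library of each genotype lay just below the lower adult library.

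**Figure D2:**
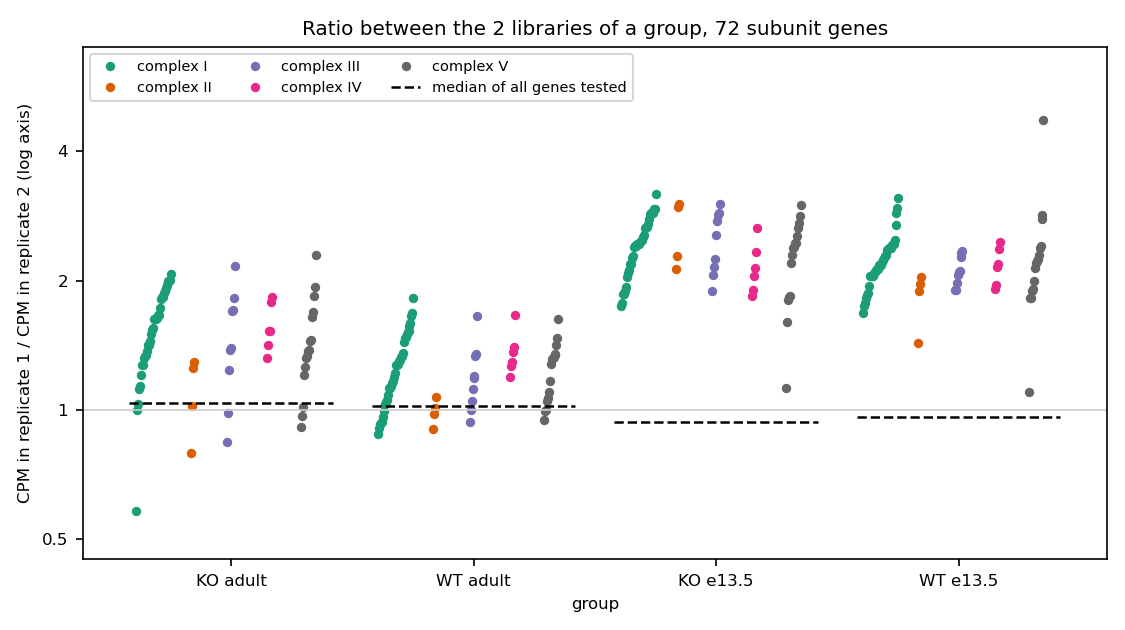
Ratio of CPM in replicate 1 to CPM in replicate 2 (log axis) for each of the 72 subunit genes, by group and, within a group, by complex (colours). The dashed line is the median of all genes tested. At e13.5 all points lie above 1 in both genotypes, with medians of 2.42 in KO and 2.16 in WT.

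Some markers of other cells also differed between the e13.5 replicates, and not all in the same direction. The summed level of 6 fibroblast markers (Col1a1, Col1a2, Col3a1, Dcn, Pdgfra and Tcf21, none of them at 0) was 253 CPM in replicate 1 and 2797 CPM in replicate 2 of KO e13.5, and 629 and 3234 CPM in WT e13.5. Replicate 1 was the lower one for 6 of 6 of them in KO e13.5 and 4 of 6 in WT e13.5. The 10 cardiomyocyte markers summed to 33780 and 13760 CPM in KO e13.5 and to 28910 and 24040 CPM in WT e13.5. The single markers were split, with 6 of 10 higher in replicate 1 in KO e13.5 and 4 of 10 in WT e13.5. Actc1 had 18960 and 5869 CPM in KO e13.5 and 14920 and 7311 CPM in WT e13.5, while Ttn ran the other way, with 531.8 and 808 CPM in KO e13.5 and 331 and 1756 CPM in WT e13.5. The 8 erythroid markers summed to 160000 and 22800 CPM in KO e13.5, to 43790 and 20140 CPM in WT e13.5, and to 16.8 to 179.6 CPM in adults, where Hbb-y and Hba-x were at 0. The 5 smooth muscle and pericyte markers summed to 2220 and 1135 CPM in KO e13.5 and to 1893 and 1074 CPM in WT e13.5. Yet 4 of these 5 were lower in replicate 1 in KO e13.5, and 3 of 5 in WT e13.5. Endothelial sums were 340 and 389 CPM in KO e13.5 and 288 and 531 CPM in WT e13.5. Macrophage and leukocyte sums were 85.8 and 58.4 CPM in KO e13.5 and 47.4 and 55.2 CPM in WT e13.5. The part of these markers in the results was not tested. Leaving out 1 e13.5 library moved the age medians widely. In KO hearts the median of the members was 1.46 without KO e13.5 replicate 1 and 0.20 without replicate 2. In WT hearts it was 1.14 without WT e13.5 replicate 1 and -0.14 without replicate 2.

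Complex I takes electrons from NADH, and its 7 nuclear core subunits form the arm that holds the flavin and the iron-sulphur clusters. All 7 had a positive fitted age change in both genotypes (median 1.04 in KO hearts and 0.82 in WT hearts), and none passed the test. Ndufs1, the largest iron-sulphur subunit, had 571 and 979 CPM in KO adults, against 462 and 239 CPM in KO e13.5. It had 778 and 883 CPM in WT adults, against 428 and 255 CPM in WT e13.5. The adult libraries lay above the e13.5 libraries in both genotypes, and the log2 fold change was 1.15 ± 0.53 (SE) in KO hearts (adjusted p = 0.10, edgeR) and 1.28 ± 0.53 in WT hearts (adjusted p = 0.079). Ndufv1, the flavin subunit that oxidises NADH, had 696 and 673 CPM in KO adults, against 595 and 222 CPM in KO e13.5. In WT it had 655 and 723 CPM in adults, against 503 and 268 CPM at e13.5. Its log2 fold change was 0.75 ± 0.55 in KO hearts and 0.84 ± 0.56 in WT hearts, and neither passed the test.

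The 30 accessory subunits of complex I surround the core. Their median age change was 0.64 in KO hearts and 0.18 in WT hearts, with a range over all complex I subunits of -0.34 to 1.89 in KO hearts and -0.99 to 1.41 in WT hearts. Ndufa4 was first assigned to complex I and later found in complex IV, and it is counted here with complex I by its symbol. It had 897 and 706 CPM in KO adults, against 295 and 139 CPM in KO e13.5, and rose by 1.89 ± 0.58 on the log2 scale (adjusted p = 0.027, edgeR). In WT hearts it had 711 and 484 CPM in adults, against 406 and 172 CPM at e13.5, a log2 fold change of 1.05 ± 0.57 that did not pass (adjusted p = 0.17). Ndufb10, a membrane arm subunit named here after its values were seen, had 510 and 306 CPM in KO adults, against 184 and 75.5 CPM in KO e13.5. It rose by 1.65 ± 0.59 in KO hearts (adjusted p = 0.047). In WT hearts it had 434 and 284 CPM in adults, against 181 and 88.4 CPM at e13.5, a log2 fold change of 1.41 ± 0.59 (adjusted p = 0.081). For both genes the adult libraries lay above the e13.5 libraries in each genotype. Both calls were lost without KO adult replicate 1 (adjusted p = 0.112 for Ndufa4 and 0.221 for Ndufb10), without KO adult replicate 2 (0.0752 and 0.0813) and without KO e13.5 replicate 2 (0.11 and 0.182). That of Ndufb10 was also lost without WT adult replicate 1 (adjusted p = 0.075) or replicate 2 (0.0745).

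At the other end, 13 complex I subunits in WT hearts and 2 in KO hearts (Ndufa2 and Ndufb6) had fitted values below 0, and none of them passed the test. Ndufa2 had 196 and 102 CPM in KO adults, against 224 and 109 CPM in KO e13.5. WT libraries had 119 and 87.3 CPM in adults, against 289 and 122 CPM at e13.5. The WT adult libraries lay just below the WT e13.5 libraries, the KO libraries overlapped, and the log2 fold change was -0.16 ± 0.57 in KO hearts and -0.99 ± 0.58 in WT hearts. Ndufb6 had -0.34 ± 0.59 in KO hearts and -0.68 ± 0.60 in WT hearts. The other WT values below 0 were those of Ndufa1, Ndufa7, Ndufa12, Ndufa13, Ndufb2, Ndufb4, Ndufc1, Ndufc2, Ndufs5, Ndufs6 and Ndufv3, between -0.80 for Ndufb4 and -0.01 for Ndufb2. In KO hearts the values of these 11 genes lay between 0.04 for Ndufc2 and 0.74 for Ndufb2. The counts of Ndufb4 can be shared with a copy, whose values are given below.

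Complex II, succinate dehydrogenase, had positive fitted values for all 4 subunits in both genotypes. Sdha, the flavoprotein that oxidises succinate, is encoded on mouse chromosome 13 (GRCm38, 74322254 to 74350280, minus strand). It had 1470 and 1853 CPM in KO adults, against 745 and 326 CPM in KO e13.5. In WT hearts the level was 1578 and 1472 CPM in adults, against 568.5 and 397.5 CPM at e13.5. Each adult library was above each e13.5 library by a wide margin, and Sdha rose by 1.63 ± 0.53 in KO hearts and by 1.66 ± 0.53 in WT hearts (adjusted p = 0.0332 in each, edgeR). It was the 1 member called higher in both genotypes. The call of Sdha in WT hearts was lost with any 1 adult library or WT e13.5 library left out. That in KO hearts was lost with any 1 adult library or KO e13.5 replicate 2 left out. The adult libraries of the other genotype are not part of the comparison and enter only through the shared estimate of spread. These losses therefore do not show that the change of Sdha rested on a single library. Sdhb, the iron-sulphur subunit, had log2 fold changes of 0.79 ± 0.59 in KO hearts and 0.63 ± 0.59 in WT hearts. The membrane anchors gave 0.84 ± 0.52 and 0.74 ± 0.52 (Sdhc) and 0.45 ± 0.57 and 0.49 ± 0.57 (Sdhd) in KO and WT hearts, and none of the 3 passed.

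**Figure D3:**
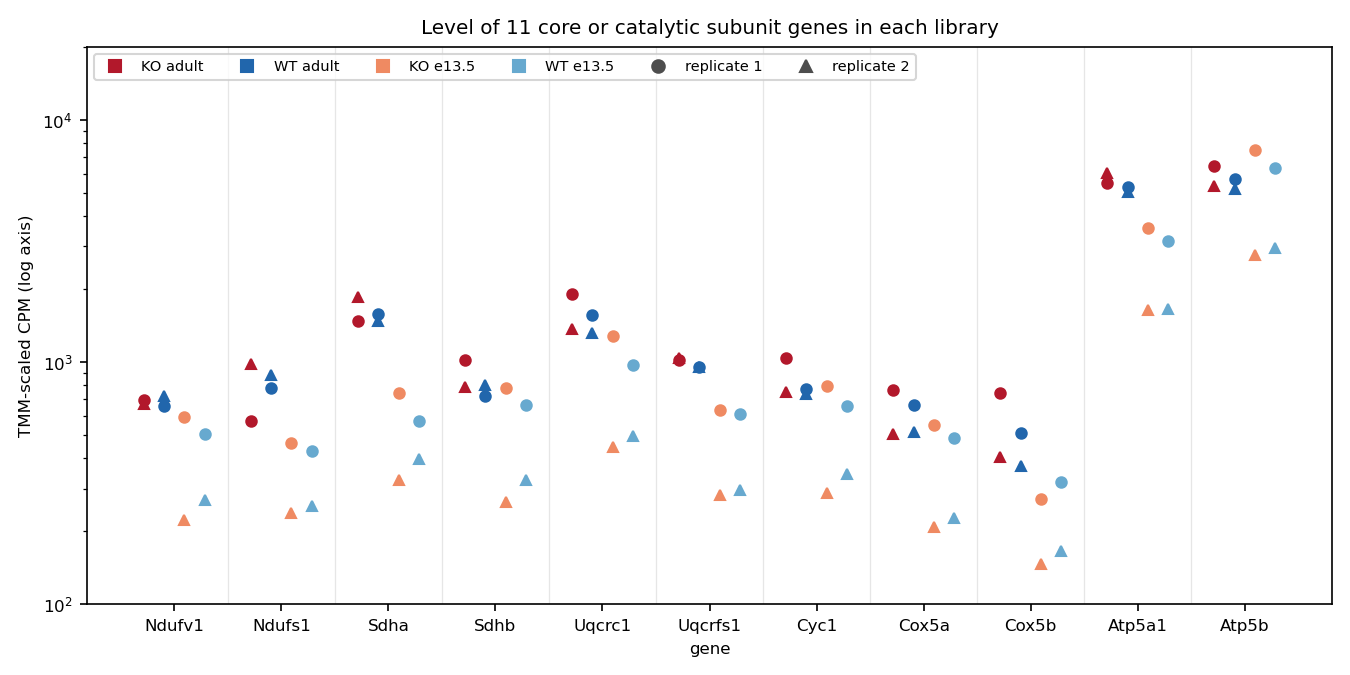
TMM-scaled CPM (log axis) of 11 subunit genes, of which Uqcrc1, Cox5a and Cox5b are accessory, in each of the 8 libraries. The groups are shown as colours, with KO left of WT within an age, and the replicates as symbols. Sdha lies between 1470 and 1853 CPM in the adult libraries and between 326 and 745 CPM at e13.5, and the e13.5 circles (replicate 1) lie above the e13.5 triangles (replicate 2) for every gene.

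In complex III, which passes electrons from ubiquinol to cytochrome c, all 9 subunits had positive values in KO hearts and 7 in WT hearts, and none passed the test. Uqcrfs1, the Rieske iron-sulphur protein, had 1017 and 1035 CPM in KO adults, against 632 and 281 CPM in KO e13.5. In WT it had 954 and 952 CPM in adults, against 608 and 295 CPM at e13.5. The adult libraries agreed closely and all lay above those of e13.5, with log2 fold changes of 1.17 ± 0.55 in KO hearts (adjusted p = 0.11) and 1.08 ± 0.55 in WT hearts (adjusted p = 0.14). Cyc1, cytochrome c1, had 0.72 ± 0.57 and 0.59 ± 0.57 in KO and WT hearts, and Uqcrc1, counted here as an accessory subunit, had 0.93 ± 0.60 and 0.97 ± 0.60. Uqcrq, a small subunit, had the highest KO value, 1.51 ± 0.58 (adjusted p = 0.059), from 811 and 445 CPM in KO adults, against 297 and 144 CPM in KO e13.5. In WT hearts Uqcr10 (-0.08 ± 0.59) and Uqcr11 (-0.17 ± 0.56) were the subunits below 0.

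Complex IV, cytochrome c oxidase, was represented by 6 nuclear subunits, with Ndufa4 counted under complex I, and none of these 6 passed the test. Cox5b had 742 and 405 CPM in KO adults, against 271.5 and 147 CPM in KO e13.5. WT libraries had 509 and 372.5 CPM in adults, against 318.5 and 166 CPM at e13.5. The adult libraries lay above the e13.5 libraries in both genotypes, and the log2 fold change was 1.45 ± 0.55 in KO hearts (adjusted p = 0.056) and 0.86 ± 0.54 in WT hearts (adjusted p = 0.23). Cox5a, a subunit on the matrix side, had 0.74 ± 0.59 in KO hearts and 0.73 ± 0.59 in WT hearts. Cox6b1, which faces the intermembrane space, was at the low end of the complex, with 523 and 343 CPM in KO adults, against 678 and 316 CPM in KO e13.5. In WT hearts the level was 417 and 298 CPM in adults, against 818 and 419 CPM at e13.5. Its libraries did not overlap in WT hearts, by a narrow margin, and the values were -0.20 ± 0.55 in KO hearts and -0.79 ± 0.55 in WT hearts (adjusted p = 0.79 and 0.27). Cox6c, a small membrane subunit, had 0.43 ± 0.56 and -0.37 ± 0.56 in KO and WT hearts. Cox7b2, a paralog of Cox7b, was the member that the filter on low counts left out, with 2 and 0 counts in KO e13.5, 3 and 1 counts in WT e13.5 and 0 in every adult library.

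In complex V the catalytic F1 subunits stood highest. Per kilobase of exon, Atp5a1 (alpha) had a mean level of 1838 CPM per kb in KO adults and 769 in WT e13.5, and Atp5b (beta) had 1391 in KO adults and 1095 in WT e13.5. Which of these 2 led a group depended on the length used, because Atp5b was first in KO adults when the longest transcript was taken (3076 against 2155 CPM per kb). Atp5a1 had 5507 and 6018 CPM in KO adults, against 3587 and 1634 CPM in KO e13.5. In WT it had 5285 and 5021 CPM in adults, against 3164 and 1655 CPM at e13.5. Adult libraries lay above e13.5 libraries, with log2 fold changes of 1.14 ± 0.57 in KO hearts and 1.10 ± 0.57 in WT hearts (adjusted p = 0.13 and 0.15). For Atp5b the groups overlapped, since the e13.5 libraries reached 7528 CPM in KO and 6330 CPM in WT, and the values were 0.20 ± 0.62 and 0.23 ± 0.62. Apart from Atp5g2, 4 complex V members had values below 0 in WT hearts: the F1 epsilon gene Atp5e, Atp5k, Atp5mpl and the stalk gene Atp5o, between -0.77 for Atp5mpl and -0.02 for Atp5o. In KO hearts their values lay between 0.19 for Atp5mpl and 0.31 for Atp5e.

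Atp5g1, Atp5g2 and Atp5g3 encode subunit c, which forms the rotating ring of the ATP synthase, and their mature proteins are identical. The promoters of these 3 genes and of Sdha, the gene called higher in both genotypes, are printed because Sdha and Atp5g2 are the members called in both genotypes, in opposite directions, and Atp5g1 and Atp5g3 are the paralogs of Atp5g2. Each sequence runs 5′ to 3′ from 250 bases before to 50 bases after the annotated start, from RefSeq (GRCm38.p6), and all 4 genes lie on the minus strand (chr13:74350191-74350490, chr11:96075582-96075881, chr15:102670998-102671297 and chr2:73911277-73911576, in the order printed). Capitals mark exact matches, on either strand, to 3 motifs, GCGCATGCG (NRF1), CCGGAAGT (ETS family, which includes GABPA) and TCAAGGTCA (estrogen-related receptors).
Sdha: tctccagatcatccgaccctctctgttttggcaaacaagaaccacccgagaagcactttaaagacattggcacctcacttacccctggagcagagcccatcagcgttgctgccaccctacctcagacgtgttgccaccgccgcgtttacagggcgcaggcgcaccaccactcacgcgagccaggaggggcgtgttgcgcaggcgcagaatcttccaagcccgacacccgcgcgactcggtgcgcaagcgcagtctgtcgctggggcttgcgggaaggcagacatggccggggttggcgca
Atp5g1: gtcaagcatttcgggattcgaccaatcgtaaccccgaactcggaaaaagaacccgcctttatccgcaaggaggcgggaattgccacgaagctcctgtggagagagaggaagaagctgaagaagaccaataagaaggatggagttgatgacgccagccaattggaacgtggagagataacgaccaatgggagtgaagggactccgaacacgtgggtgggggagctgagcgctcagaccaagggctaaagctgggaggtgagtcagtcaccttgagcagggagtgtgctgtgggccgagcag
Atp5g2: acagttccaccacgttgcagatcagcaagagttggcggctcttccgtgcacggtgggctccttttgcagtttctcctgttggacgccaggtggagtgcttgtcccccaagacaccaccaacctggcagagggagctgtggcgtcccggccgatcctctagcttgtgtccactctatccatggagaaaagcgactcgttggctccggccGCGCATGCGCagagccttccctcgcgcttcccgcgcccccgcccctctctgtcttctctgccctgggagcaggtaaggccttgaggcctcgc
Atp5g3: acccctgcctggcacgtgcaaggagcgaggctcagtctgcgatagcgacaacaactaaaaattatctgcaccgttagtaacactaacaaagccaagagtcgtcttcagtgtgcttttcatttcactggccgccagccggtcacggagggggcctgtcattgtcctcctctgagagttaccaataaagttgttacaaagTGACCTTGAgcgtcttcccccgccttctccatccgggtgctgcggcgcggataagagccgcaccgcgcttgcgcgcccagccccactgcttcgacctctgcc
The Atp5g2 window holds the NRF1 motif on both strands, overlapping by 8 bases. The Atp5g3 window holds the estrogen-related receptor motif on the strand opposite to the one printed, and the other windows hold none of the 3. Promoters were found for 60 of the 72 subunit genes. The NRF1 motif was in those of 7 (Atp5g2, Atp5k, Atp5l, Ndufa8, Ndufa11, Uqcr11 and Uqcrc1), or 11.7%, against 1.95% of the 27025 genes with a promoter in the RefSeq table. The ETS motif was in those of 4 (Atp5h, Ndufs3, Uqcr11 and Uqcrh), or 6.67% against 4.31%, and the estrogen-related receptor motif in those of 2 (Atp5g3 and Sdhd), or 3.33% against 0.466%. These matches describe the letters in the windows and were not related to expression by a test.

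The subunit c genes differed in their values by age. Atp5g1 had 1705 and 879 CPM in KO adults, against 653 and 247 CPM in KO e13.5. WT libraries had 1105 and 840 CPM in adults, against 666 and 303 CPM at e13.5. Adult libraries were the higher ones, with log2 fold changes of 1.52 ± 0.63 in KO hearts (adjusted p = 0.078) and 1.01 ± 0.63 in WT hearts (adjusted p = 0.23). Atp5g3 overlapped between the ages, at 0.70 ± 0.75 and 0.58 ± 0.75. Atp5g2 went the other way, with 12.3 and 12.1 CPM in KO adults, against 100.8 and 89.8 CPM in KO e13.5, and with 7.45 and 7.85 CPM in WT adults, against 143 and 129.9 CPM in WT e13.5. It fell in both genotypes, with log2 fold changes of -2.96 ± 0.40 in KO hearts (adjusted p = 0.000644, edgeR) and -4.16 ± 0.42 in WT hearts (adjusted p = 0.000278), the lowest values among the 82 tested members.

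The counts of Atp5g2 are uncertain, because its reads can be shared with a copy. Gm10175, a transcribed processed pseudogene on chromosome 7 (GRCm38, 23946646 to 23947290), matched the whole of an Atp5g2 transcript at 100% identity and held 289% of its counts. Gm10175 had 351 and 184.5 CPM in KO adults, against 195.5 and 177 CPM in KO e13.5, and 243 and 190 CPM in WT adults, against 275 and 148 CPM in WT e13.5. Added together, Atp5g2 and Gm10175 had 363 and 197 CPM in KO adults, against 296 and 267 CPM in KO e13.5, and 250.1 and 198 CPM in WT adults, against 418 and 278 CPM in WT e13.5. With copies added, the log2 fold change was -0.01 in KO hearts (adjusted p = 0.989) and -0.63 in WT hearts (adjusted p = 0.301), and neither call held.

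**Figure D4:**
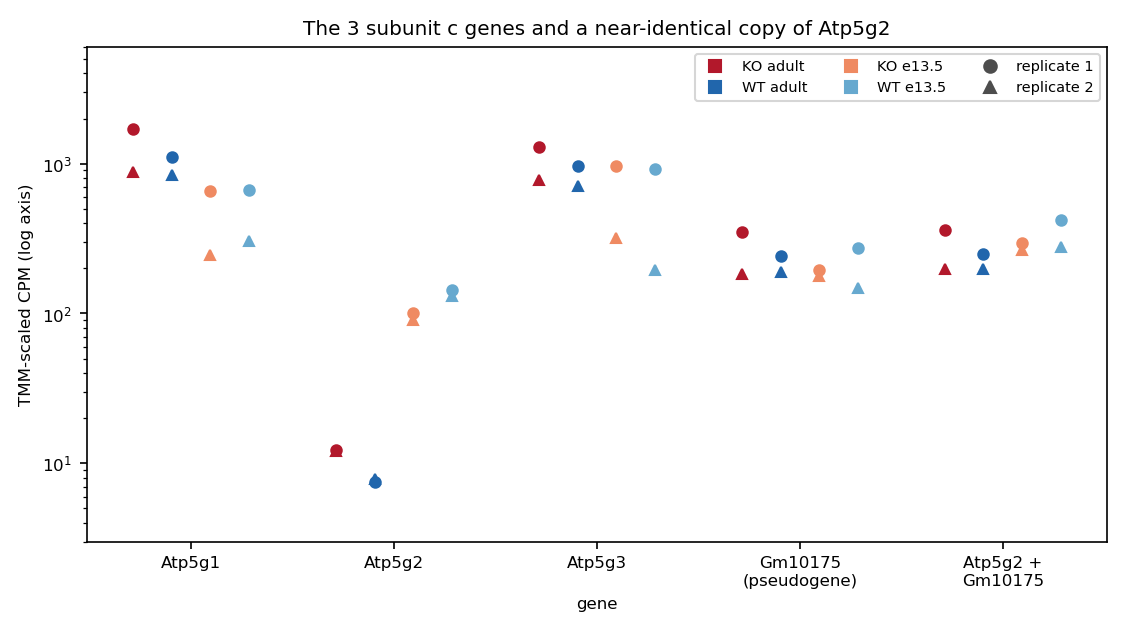
TMM-scaled CPM (log axis) of the subunit c genes Atp5g1, Atp5g2 and Atp5g3, of the pseudogene Gm10175 and of the sum of Atp5g2 and Gm10175 in each library, with the groups as colours and the replicates as symbols. Atp5g2 lies between 7.45 and 12.3 CPM in adults and between 89.8 and 143 CPM at e13.5, while the sum overlaps between the ages in KO hearts.

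Copies also took counts near 2 other members. Gm10221, a processed pseudogene of Atp5l (subunit g), had 2765 and 1616 counts in KO adults, against 15 and 0 counts in KO e13.5, and 2373 and 1382 counts in WT adults, against none in WT e13.5. Atp5l itself had 476 and 357 CPM in KO adults, against 287 and 117 CPM in KO e13.5, a log2 fold change of 1.04 ± 0.59 that did not pass. Ndufb4c is 100% identical to Ndufb4 over 45.2% of the transcript and held 151% of its counts. It rose by 1.90 ± 0.64 in KO hearts (adjusted p = 0.0384, edgeR), where Ndufb4 itself had 0.14 ± 0.64. In WT hearts it had 0.95 ± 0.62, where Ndufb4 had -0.80 ± 0.65. Added together, Ndufb4 and Ndufb4c had 283 and 157 CPM in KO adults, against 142 and 56.4 CPM in KO e13.5. The sum was 171 and 126 CPM in WT adults, against 187 and 60.3 CPM in WT e13.5, so that the WT ages overlapped.

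The 8 assembly factors of complex I taken in by the rule help to build the complex and are not part of it. Their median age change was 0.04 in KO hearts and -0.13 in WT hearts, and none passed the test. Ndufaf2 was lowest, at -0.83 ± 0.57 and -1.24 ± 0.57 in KO and WT hearts, from 14.7 and 8.55 CPM in KO adults, against 27.5 and 13.9 CPM in KO e13.5. Of a wider list of 44 assembly factors for all complexes, which holds Ndufaf genes as well, 5 rose and 1 fell in each genotype, beside the 20.5% of all genes that rose and 20.9% that fell in KO hearts and the 17.8% and 21.1% in WT hearts. Ttc19, a complex III factor, rose by 4.64 ± 0.54 in KO hearts and 4.63 ± 0.53 in WT hearts (adjusted p = 0.000329 and 0.000387), and Timmdc1, Sco2, Coa5 and Atpaf1 rose in both. Cox18 fell in KO hearts and Pet100 in WT hearts.

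The subunits encoded by mitochondrial DNA had larger fitted changes than the nuclear members. All 13 rose in KO hearts and 12 of 13 rose in WT hearts, with median log2 fold changes of 4.87 and 4.42. The cytochrome oxidase gene mt-Co1 had 148500 and 123200 CPM in KO adults, against 5536 and 4466 CPM in KO e13.5. In WT hearts the level was 99570 and 133600 CPM in adults, against 5794 and 5133 CPM at e13.5. The exception in WT hearts was mt-Atp6, at 1.11 ± 0.59 (adjusted p = 0.158), which rose by 1.98 ± 0.60 in KO hearts (adjusted p = 0.0259). Mitochondrial RNA took 22.6% to 28.8% of the counts of adult libraries and 3.21% to 4.36% of those at e13.5. With those genes, haemoglobin and ribosomal RNA taken out of the table and the scaling, the members' median was 0.65 in KO hearts and 0.32 in WT hearts.

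Among 20 regulators of respiratory genes, 7 rose and 2 fell in KO hearts, and 6 rose and 2 fell in WT hearts (all genes 20.5% and 20.9% in KO hearts, 17.8% and 21.1% in WT hearts). Esrra, the estrogen-related receptor alpha, had 275 and 154 CPM in KO adults, against 7.31 and 4.95 CPM in KO e13.5, and 206 and 162 CPM in WT adults, against 8.48 and 6.23 CPM in WT e13.5. It rose by 5.13 ± 0.54 in KO hearts and 4.65 ± 0.53 in WT hearts (adjusted p = 0.000261 and 0.000372). Perm1, a muscle regulator that acts with PGC-1 and these receptors, rose by 8.11 ± 0.80 and 7.81 ± 0.78, and Ppara, a regulator of fatty acid oxidation, by 4.15 ± 0.58 and 4.53 ± 0.58 in KO and WT hearts. Nrf1, whose product binds promoters of many respiratory genes, and Gabpb1, the partner subunit of GABPA, fell, with log2 fold changes of -1.53 ± 0.41 and -1.38 ± 0.41 (Nrf1) and -2.05 ± 0.41 and -1.86 ± 0.40 (Gabpb1) in KO and WT hearts. Ppargc1a, the coactivator PGC-1 alpha, had values of 0.34 ± 0.51 and 1.07 ± 0.52 that did not pass. Among 17 genes of electron carriers and ubiquinone synthesis, 6 rose in KO hearts (all genes 20.5%) and 7 in WT hearts (all genes 17.8%) and none fell (all genes 20.9% and 21.1%), with Coq10a at 6.66 ± 0.61 and 7.53 ± 0.63 and Coq2 at 5.50 ± 0.47 and 5.45 ± 0.47. Cycs, cytochrome c, had 0.23 ± 0.66 and 0.09 ± 0.66 and did not pass.

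The fitted age change went with transcript length among the subunits and, to a similar degree in KO hearts, over all coding genes. Spearman's rho between the log2 fold change and the longest annotated transcript, of 419 to 6310 bases, was 0.328 in KO hearts and 0.494 in WT hearts over 72 genes, against 0.277 and 0.256 over 14431 coding genes. The 36 subunits with the longer transcripts had a median of 0.78 in KO hearts and 0.61 in WT hearts, and the 36 with the shorter ones had 0.71 and 0.15. Against the length of the exon union, rho over the subunits was 0.262 in KO hearts and 0.452 in WT hearts. These points come from the same 8 libraries, and genes are not independent replicates. The ratio of replicate 1 to replicate 2 was also set against length. Over the 72 subunits, rho was -0.338 in KO adults, -0.367 in WT adults, 0.213 in KO e13.5 and -0.152 in WT e13.5. Over coding genes, it was -0.381 in KO adults, 0.032 in WT adults, -0.433 in KO e13.5 and -0.585 in WT e13.5. The part of length in the results was not tested.

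The loss of LncSync was compared with the wild type at each age. No member passed the test in any of the comparisons of genotype, in which few genes passed in all. KO against WT called 0.0481% of all genes in adults, 0.0722% at e13.5 and 0.12% over both ages, in either direction. For the members, the number with an unadjusted p below 0.05 (edgeR) was 0 in each of these. Over all genes tested it was 377 in adults, 398 at e13.5 and 470 over both ages. DESeq2 called none of the members either. In adults 76 of 82 members had a value above 0, with a median of 0.27 against 0.01 over all genes tested. At e13.5, 28 of 82 did, with a median of -0.11 against -0.07 over all genes. The e13.5 median turned with single libraries, at -0.83 without KO e13.5 replicate 1, 0.42 without KO e13.5 replicate 2, 0.72 without WT e13.5 replicate 1 and -0.52 without WT e13.5 replicate 2, and it was 0.03 under median-of-ratios scaling. The KO and WT adult libraries did not overlap for 13 members, all with KO higher, while 27.9% of all genes did not overlap, 2239 of 16623 with KO higher and 2405 with KO lower. The members' count with KO higher was near that share of all genes. At e13.5 this held for 2 members, Ndufa4l2 with KO higher and Atp5g2 with KO lower, and for 15.4% of all genes.

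**Figure D5:**
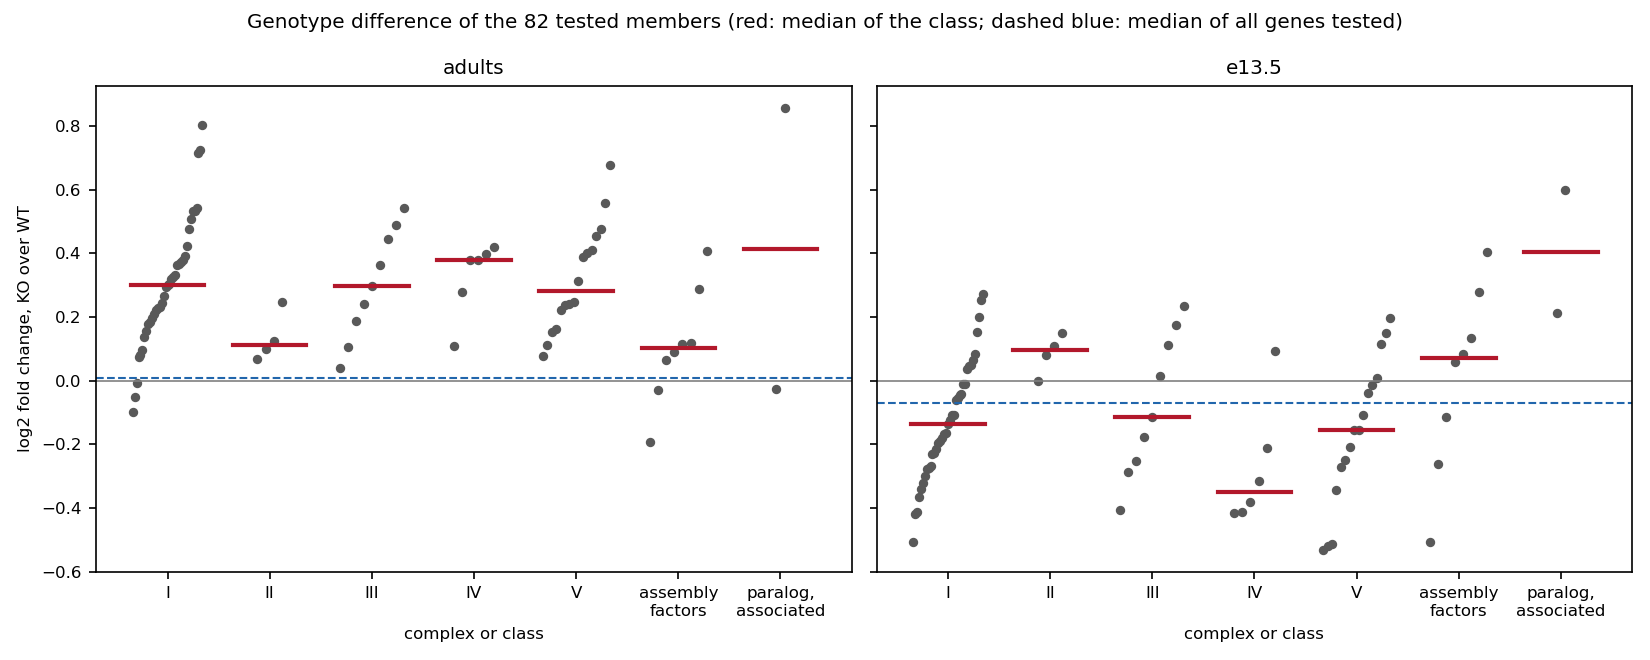
Fitted log2 fold change, KO over WT, of the 82 tested members in adults (left) and at e13.5 (right), by complex or class, with the median of each class as a red bar and the median of all genes tested as a dashed blue line. In adults 76 of 82 points lie above 0, and at e13.5 28 do, while no member passed the test at either age.

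By complex, the median of the genotype difference in adults was 0.30 for complex I, 0.11 for complex II, 0.30 for complex III, 0.38 for complex IV and 0.28 for complex V. At e13.5 it was -0.14, 0.10, -0.11, -0.35 and -0.16 in the same order. Summed over the 72 subunits, the level was 50580 and 40380 CPM in KO adults, against 41720 and 37020 CPM in WT adults, so that the lower KO library lay between the WT libraries. At e13.5 it was 37920 and 15410 CPM in KO and 36540 and 17260 CPM in WT. The positive median in adults rested on KO adult replicate 1, as it was -0.02 without that library and 0.57 without KO adult replicate 2. That library also had fewer counts on some long transcripts, with 1231 CPM for Ttn against 7470 CPM in KO adult replicate 2 and 4686 and 5461 CPM in WT adults. The 6 fibroblast markers summed to 960 and 561 CPM in KO adults and 596.5 and 360.5 CPM in WT adults, and none was at 0. The 5 endothelial markers summed to 1410 and 753 CPM in KO adults and 770 and 555 CPM in WT adults, and the 5 macrophage and leukocyte markers to 315 and 203 CPM in KO adults and 203 and 118 CPM in WT adults. KO adult replicate 1 was the highest adult library in each of these 3 sums. The part of these values in the result was not tested.

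Among single members, Sdha had a genotype difference of 0.12 ± 0.52 in adults and 0.15 ± 0.52 at e13.5, and Ndufs1 had -0.10 ± 0.52 and 0.04 ± 0.52. For Atp5a1 the values were 0.16 ± 0.57 and 0.12 ± 0.57, although both KO adult libraries (5507 and 6018 CPM) lay above both WT adult libraries (5285 and 5021 CPM). Ndufa3, a small accessory subunit, had 135 and 81.1 CPM in KO adults, against 79.9 and 43.9 CPM in WT adults, and 52.1 and 29.3 CPM in KO e13.5, against 77.7 and 37.8 CPM in WT e13.5. The adult libraries did not overlap, by a narrow margin, and its log2 values were 0.80 ± 0.54 in adults and -0.51 ± 0.54 at e13.5. Ndufa4l2, the paralog of Ndufa4, had 23.9 and 8.48 CPM in KO adults, against 11.2 and 6.61 CPM in WT adults, and 8.88 and 11.1 CPM in KO e13.5, against 7.24 and 5.99 CPM in WT e13.5. It had the highest fitted differences of the members at both ages, 0.86 ± 0.57 and 0.60 ± 0.57, and did not pass (adjusted p = 1 for both, edgeR).

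The interaction, the age change in KO hearts minus that in WT hearts, called 0 of the members and 0% of all genes. Its median over the members was 0.41, against 0.12 over all genes. An unadjusted p below 0.05 (edgeR) was found for 265 of the 16623 genes tested and for 1 of the 82 members. That member was Atp5g2, with an interaction of 1.19 ± 0.53 (adjusted p = 1, edgeR), and the next by p were Ndufa3 with 1.31 ± 0.76 and Ndufa1 with 1.07 ± 0.75. The median of the interaction changed sign with single e13.5 libraries, from 1.14 without KO e13.5 replicate 1 to -0.43 without WT e13.5 replicate 1.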

How the data were processed

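RNA-seq of 8 libraries was analysed from 1 deposited table. Per the labels' protocols, 200 ng of total RNA per library was amplified with Smart-seq2 and made into libraries with a SMARTer kit. The deposited values are estimated counts per gene. The authors made these estimated counts with RSEM on mm10, per the submitters' processing notes. Versions, the aligner, the gene annotation and any use of strand were not given in the sources used here. The values are whole numbers with differing totals and were taken as counts not scaled between libraries, although the table's name speaks of normalised input. Estimated counts can split reads between a gene and its copies. Names and positions came from GENCODE vM21 (GRCm38). Rows without a symbol took at most 0.0184% of a library.

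Counts were fitted in R 4.3.3 with edgeR 4.0.16 (filterByExpr, TMM factors 0.77 to 1.44, glmQLFit with 4 group means over all 8 libraries, no replicate term, 4 residual degrees of freedom, two-sided glmQLFTest, Benjamini-Hochberg over 16623 genes), tested on simulated data first. DESeq2 1.42.0 served as an alternative test, and the other alternatives were edgeR fits. A member counted as changed at an adjusted p below 0.05. The standard error is the log2 fold change over the square root of its F statistic. Copies were found with BLAST 2.17.0 (at least 95% identity over at least 50% of a member transcript), and plots and motif searches used Python 3.11.15 and matplotlib 3.10.9. Floors cover counting error only. The members, the lists and the tests were chosen with earlier results of these data known, so no set test was run.

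Named members were 11 fixed subunits and the 3 subunit c genes. In each complex and comparison, the members of smallest p and farthest from the median were named. So were the 3 of smallest p in the interaction and those with a negative age change. The member left out by the filter and the highest per length were named as well. Ndufb10 and the genes of the lists are outside this rule and were chosen after their values were seen. Replicates were numbered alike in each group, and the fit without the number as a block is the reported one. Alternatives were other filters and scalings, DESeq2, a fit to the compared libraries alone, a replicate block, each library left out and copies added to their members. No library or column was left out. The text leaves out 1 member and 1 marker that are not reported here, and both stay in counts and medians. Other genes without a sentence of their own are given by counts and ranges.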

Additional observations from a re-analysis of the deposited data

Results flagged for a closer look

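Atp5g2 was the 1 member whose KO and WT libraries did not overlap at either age and lay in opposite order. Of all genes tested, 27.9% did not overlap in adults and 15.4% at e13.5. How many of them lay in opposite order at the 2 ages was not counted, so this order is not shown to be particular to Atp5g2. KO libraries had 12.3 and 12.1 CPM in adults, against 7.45 and 7.85 CPM in WT, and 100.8 and 89.8 CPM at e13.5, against 143 and 129.9 CPM in WT. The log2 difference was 0.68 ± 0.38 in adults and -0.52 ± 0.37 at e13.5, and the test of the difference between them, the interaction, gave 1.1945 with an unadjusted p of 0.0492 and an adjusted p of 1 (edgeR). With the counts of its near-identical copies added, the interaction was 0.62 (adjusted p = 1). Groups of 2 libraries are too small for a search for single libraries far from the others.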

How the results depend on the processing

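The count of members called by age depended on the processing, while 0 members were called in every comparison of genotype and in the interaction under every alternative. In WT hearts (1 higher, 1 lower as reported) median-of-ratios and upper quartile scaling each called 0 higher and 1 lower. Under these scalings 18.5% and 17% of all genes were higher and 20.7% and 23.9% lower. Copies added, by the planned or a wider rule chosen after seeing the data, called 1 higher and 0 lower (all genes 17.8% and 21.1%). In KO hearts (3 higher, 1 lower) the same scalings called 1 higher and 1 lower, with 20.3% and 19% of all genes higher and 22.7% and 24.9% lower. No filter on low counts called 7 higher and 1 lower in KO hearts, where 13% of all genes were higher and 12.1% lower. These scalings moved the median of all genes by -0.11 to -0.20 in KO hearts. Relative to that median the members stood 0.83 to 0.88 higher in KO hearts under all 3 scalings, and 0.53 to 0.57 higher in WT hearts. With a replicate block over all 8 libraries, 20 members were higher and 1 lower in KO hearts (21 in all), and 8 higher and 2 lower in WT hearts (10 in all), where 24.1% and 21.5% of all genes were higher. The shared numbers did not meet the rule for pairing, because deviations of same-numbered libraries correlated at 0.552 at e13.5 and 0.307 in adults, at 0.129 and 0.164 between KO adults and the KO and WT e13.5 libraries, but at -0.022 and -0.032 between WT adults and those libraries. The cause of the added calls was not tested. A replicate block within each age called 0 members by genotype or in the interaction. It called 0.0361% of all genes higher and 0.0241% lower in adults, and 0.0722% and 0.00602% at e13.5. The members' median for KO against WT was then 0.25 in adults and -0.15 at e13.5, and that of the interaction was 0.41.

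Leaving out 1 library gave 1 to 13 members called in KO hearts (0 higher without KO adult replicate 1, 12 higher without KO e13.5 replicate 1) and 1 to 4 in WT hearts (3 higher without either KO e13.5 library). The share of members called higher was near that of all genes in KO hearts without KO e13.5 replicate 1. It was below that of all genes in the other age fits with 1 library left out. Each of these fits left 1 group with 1 library. The median of the members ranged from 0.20 to 1.46 in KO hearts and from -0.14 to 1.14 in WT hearts. For KO against WT it ranged from -0.02 to 0.57 in adults and from -0.83 to 0.72 at e13.5. For the interaction it ranged from -0.43 to 1.14. The member of highest level per length was the same under both lengths in 12 of 20 pairs of complex and group. With 2 libraries a group, the standard error of a member's log2 fold change had a median of 0.57, which limits the size of change that could be called.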
